A study of Sus scrofa domesticus with 4 samples.

Results

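The genes described here encode 10 proteins of the smooth muscle contractile apparatus: ACTA2, TPM1 and TPM2 of the thin filament, the thin filament regulators CNN1 and SMTN, the myosin light chains MYL6 and MYL9, the kinase MYLK, the intermediate filament protein DES and the transcriptional coactivator MYOCD. They were chosen by name and by no threshold on measured values, but with earlier results of these data known. Shares of members set beside those of all tested probes are therefore descriptions. Every probe whose accession is a RefSeq mRNA of one of these pig genes was taken. This gave 10 of the 2971 genes that could be named on the array, with 49 of its 43603 probes. Of these, 48 were among the 19881 probes bright enough to test, and the exception was a second MYOCD probe.

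The study asked how orexin B, a neuropeptide that acts through the orexin receptors, changes gene expression in pig uterine muscle at the time of implantation. Explants of myometrium, taken from the middle of the uterine horns of 4 pregnant gilts (Large White x Polish Landrace, 7 to 8 months old, 120 to 130 kg, days 15 to 16 of gestation), were cut into slices of 3 mm and about 100 mg and preincubated for 2 h. Slices then received 10 nM orexin B for 24 h, and untreated slices were kept for the same time with nothing added. Cultures were set up in duplicate in 4 separate experiments, and treated and untreated RNA was hybridised together on 4 Agilent arrays of 2 colours with 825 ng of labelled cRNA per dye. Orexin B RNA carried the green dye Cy3 and untreated RNA the red dye Cy5 on arrays 2 and 4, and the dyes were the other way round on arrays 1 and 3, by the dye given for each channel in the labels. The labels' protocol text contradicts these dye fields for arrays 2 and 4, since it puts untreated RNA in Cy3 on all arrays. The dye fields were followed, as the signs of the deposited series table do, but the direction on arrays 2 and 4 rests on them: read as the protocol text has it, the median of the 10 genes would be 0.99 on arrays 2 and 4 and 0.56 over all 4 arrays, above 0 as on arrays 1 and 3. Ratios are given throughout as orexin B over untreated, in log2 units and turned by each array's own dye labels, so a value below 0 means less signal from the treated slices. The number of arrays limits the precision, p-values measure only the spread between these 4 arrays, and the labels do not say which gilt is on which array. Dye orientation and the gilts measured in that orientation therefore cannot be told apart.

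Smooth muscle shortens when myosin filaments pull on thin filaments of actin and tropomyosin. A rise in calcium switches on myosin light chain kinase, which phosphorylates the regulatory light chain of myosin and so lets the motor cycle. Calponin and smoothelin sit on the thin filament, desmin ties the contractile units into a network, and myocardin drives transcription of these genes together with serum response factor. In pregnancy the myometrium grows and is kept largely quiet until labour.

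Contractile genes gave lower signal from orexin B slices where orexin B RNA carried Cy3, and mostly slightly higher signal where it carried Cy5. The median over the 10 genes was -1.04 and -1.05 on arrays 2 and 4, against 0.18 and 0.24 on arrays 1 and 3. Each gene's value on an array is the mean over its tested probes. All 10 genes were below 0 on arrays 2 and 4, while 2 were below 0 on array 1 (MYLK and DES) and 1 on array 3 (TPM2). Over all named genes with a tested probe, the medians were -0.12 and 0.05 on arrays 2 and 4, against 0.06 and 0.06 on arrays 1 and 3. Of those named genes, 61.2% and 42.5% were below 0 on arrays 2 and 4, against 41.1% and 39.7% on arrays 1 and 3. The medians over all tested probes lay no farther than 0.024 from 0 on any array, where loess within arrays places them by construction. Averaged over the 4 arrays, all 10 genes were below 0 with a median of -0.40. With 1 array left out that median lay between -0.62 (without array 3) and -0.20 (without array 4), and MYOCD was above 0 without array 4. In limma's test 0 of the 48 member probes had an adjusted p under 0.05 (0% of all tested probes; smallest adjusted p of a member = 0.597). In bulk tissue, fewer smooth muscle cells and less RNA per cell cannot be told apart.

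**Figure D1:**
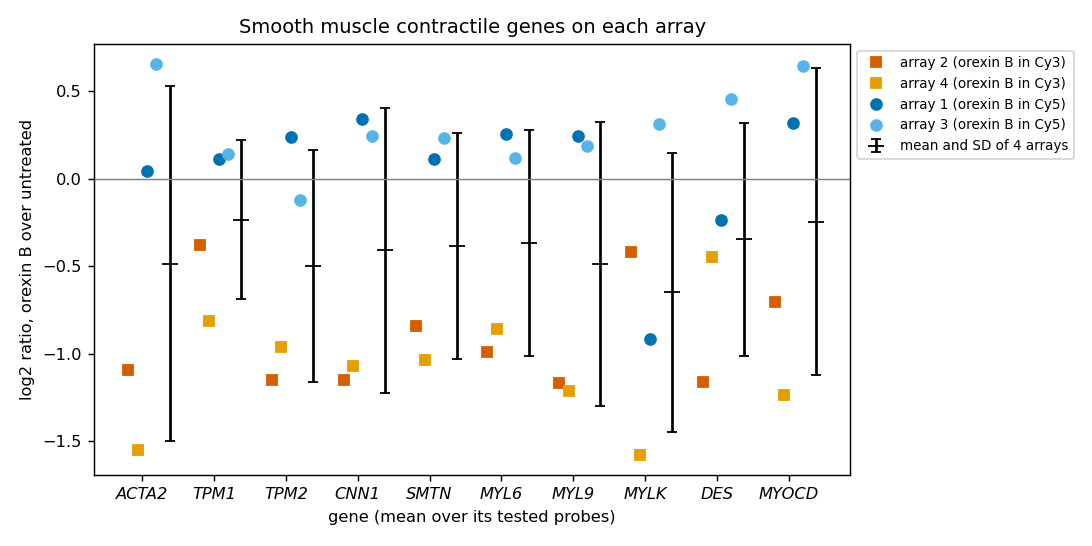
Log2 ratio of orexin B over untreated for each gene (mean over its tested probes) on arrays 2 and 4 (squares, orexin B in Cy3) and arrays 1 and 3 (circles, orexin B in Cy5), with the mean and SD of the 4 arrays in black. All squares lie below 0, and in 9 of the 10 genes both squares lie below both circles, the exception being MYLK. Of all tested probes, 23.6% had arrays 2 and 4 both below arrays 1 and 3.

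Among single probes, 47 of 48 were below 0 on array 2 and 48 of 48 on array 4, against 16 of 48 on array 1 and 8 of 47 on array 3. A ratio at least 1.5-fold below untreated on both arrays 2 and 4 was seen for 25 member probes, or 52.1%, against 2.04% of all tested probes. Those 25 came from every gene but MYLK. On both arrays 1 and 3 such a ratio was seen for 0 member probes, against 0.141% of all tested probes. In contrast, 24 member probes were above 0 on both arrays 1 and 3 (30.6% of all tested probes were). With both conditions joined, 23 member probes were below 0 on arrays 2 and 4 and above 0 on arrays 1 and 3, which 9.63% of all tested probes were. No member probe was below 0 on all 4 arrays (7.08% of tested probes) and none was above 0 on all 4 (8.92%).

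**Figure D2:**
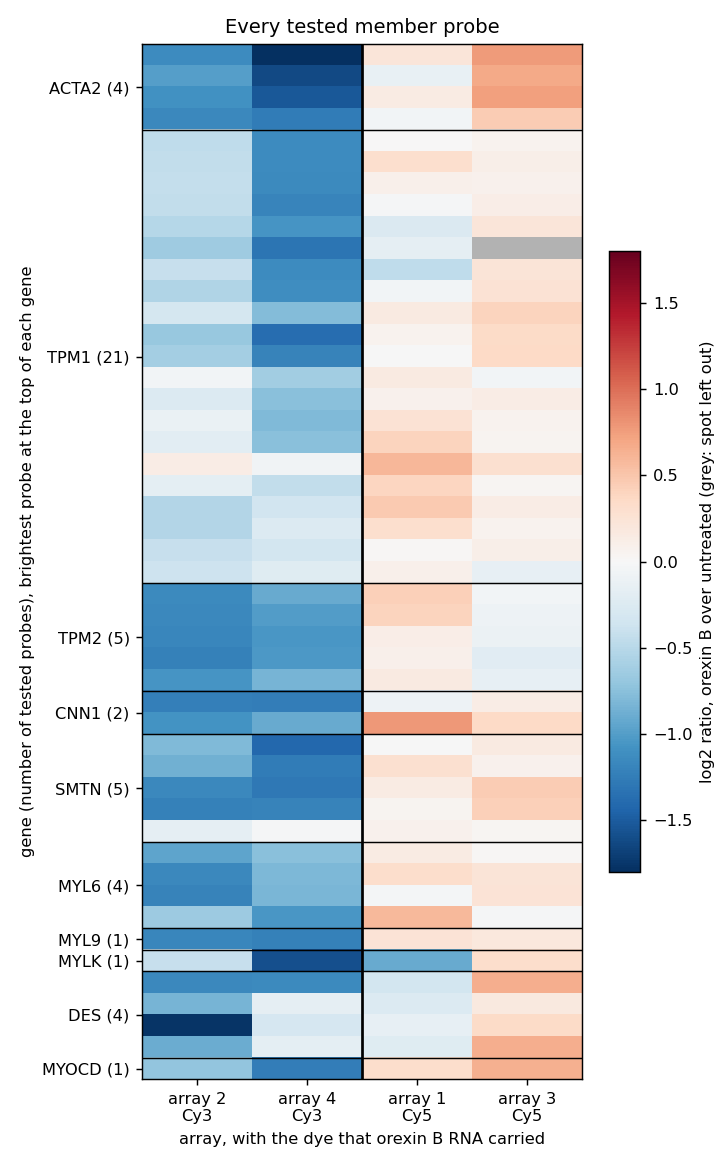
Heat map of the 48 tested member probes (rows, grouped by gene with the brightest probe on top) on arrays 2 and 4 and on arrays 1 and 3 (columns), coloured by the log2 ratio of orexin B over untreated. The 2 columns on the left are blue for nearly all probes, and the 2 on the right are pale or red for most, with the strongest blue there in MYLK on array 1.

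The difference between the dye orientations was itself tested. The ratio on arrays 2 and 4 minus that on arrays 1 and 3 was below 0 for all 48 member probes, with a median of -0.97 and a range of -1.96 to -0.15, while 48.8% of all tested probes were below 0 and their median was 0.01. At an unadjusted p under 0.05 in limma, 34 member probes (70.8%) were lower with orexin B in Cy3, against 5.83% of all tested probes, and 0 were higher, against 6.71%. None passed after Benjamini-Hochberg adjustment over all probes (0 of 48 and 0% of all tested probes; adjusted p of the members between 0.235 and 0.783). Arrays 2 and 4 both lay below arrays 1 and 3 for 44 of the 48 probes, against 23.6% of all tested probes. On slide 2 alone, which holds arrays 2, 3 and 4, 29 of 47 member probes had an unadjusted p under 0.05 for this difference, against 7.79% of all tested probes in either direction. There orexin B in Cy5 is array 3 alone, which is assumed to vary as arrays 2 and 4 do, so the count is no replicated check within a slide.

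**Figure D3:**
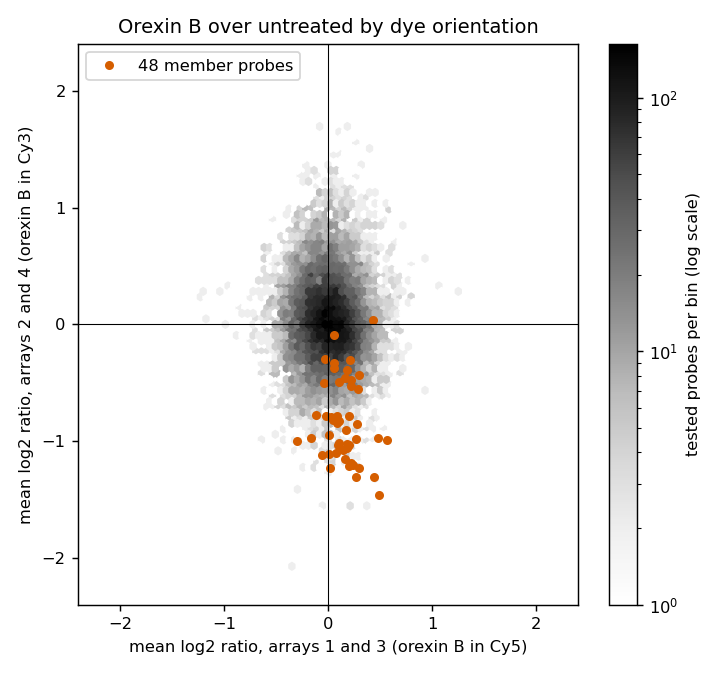
Mean log2 ratio of orexin B over untreated on arrays 2 and 4 (vertical axis, orexin B in Cy3) against that on arrays 1 and 3 (horizontal axis, orexin B in Cy5), for all tested probes (grey bins) and the 48 member probes (orange). The member probes form a group in the lower part of the cloud, with a median difference of -0.97 between the axes.

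The mean over all 4 arrays mixed these opposite values. At an unadjusted p under 0.05 it was lower for 2 member probes, 1 of TPM1 and 1 of TPM2, against 3.41% of all tested probes, and higher for 0, against 4.31%. That count moved with single arrays: it was 11 without array 1, 0 without array 2, 19 without array 3 and 0 without array 4. The shares of all tested probes in either direction were 6.28%, 7.22%, 9.67% and 3.66% in these fits, and 7.72% with all arrays. With a term for the dye in the model it was 28 lower (58.3%; 5.2% of all tested probes) and 0 higher (6.79%), with 0 past the adjusted threshold (0% of all tested probes; smallest adjusted p of a member = 0.195 in limma). Across probes, 47 of the 48 had a mean below 0, as did 45.9% of all tested probes.

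Among the thin filament genes, ACTA2, the smooth muscle alpha-actin that forms the track for myosin, had the widest gap between orientations. Its log2 ratio was -1.09 and -1.55 on arrays 2 and 4, against 0.04 and 0.66 on arrays 1 and 3. Arrays 2 and 4 averaged -1.32, or 2.50 times lower than untreated, and arrays 1 and 3 averaged 0.35. Over the 4 arrays the mean was -0.49 ± 1.02 (SD, n = 4), so the spread exceeded the mean. All 4 of its probes showed this, with means of -1.46 to -1.21 on arrays 2 and 4 and 0.20 to 0.49 on arrays 1 and 3. For the brightest, the orientations differed by -1.96 ± 0.32 (SE; unadjusted p = 0.000592 and adjusted p = 0.235 in limma). Muscle actins are near-identical in sequence, so signal from ACTA1 or ACTC1 RNA on the ACTA2 probes cannot be told apart from ACTA2.

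Values for the named paralogs followed the same division. ACTA1, skeletal alpha-actin, stood at -0.83 and -1.27 on arrays 2 and 4, against 0.37 and 0.33 on arrays 1 and 3, over 14 tested probes. ACTC1, cardiac alpha-actin, stood at -0.98 and -1.22 on arrays 2 and 4, against 0.79 and 0.53 on arrays 1 and 3, over 3 probes. Neither gene's orientations overlapped, while 23.6% of all tested probes had arrays 2 and 4 both below arrays 1 and 3. Signal from ACTA2 RNA on the ACTA1 and ACTC1 probes cannot be told apart from these genes either.

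TPM2, a tropomyosin that lies along the actin filament, read -1.15 and -0.96 on arrays 2 and 4, against 0.24 and -0.12 on arrays 1 and 3. The mean on arrays 2 and 4 was -1.06, or 2.08 times lower than untreated, and that on arrays 1 and 3 was 0.06, close to no difference. Its 5 probes were alike, spanning -1.12 to -0.95 on arrays 2 and 4. Over the 4 arrays TPM2 averaged -0.50 ± 0.67 (SD, n = 4). The probe A_72_P602563 had the smallest p of TPM2 in that comparison, with a mean of -0.59 ± 0.23 (SE; 95% interval -1.13 to -0.04; unadjusted p = 0.0382, adjusted p = 0.626 in limma), although array 1 alone read 0.09.

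TPM1, the second tropomyosin, had the ratio nearest to 0 of the 10 genes on array 2 and, after DES, on array 4. It measured -0.38 and -0.82 on arrays 2 and 4, against 0.12 and 0.14 on arrays 1 and 3, with a mean of -0.23 ± 0.46 (SD, n = 4), or -0.04 without array 4. Arrays 2 and 4 averaged -0.60, or 1.51 times lower than untreated. TPM1 also had the most probes, 21, for a gene with 24 RefSeq transcripts, and which transcripts each probe detects was not tested. Its only probe with a p under 0.05, A_72_P736013, read -0.64 and -1.31 on arrays 2 and 4, against -0.16 on array 1 (unadjusted p = 0.0231; adjusted p = 0.597 in limma), and its array 3 spot was left out as an outlier. The single member probe with a mean above 0, A_72_P752169, was also one of TPM1 and read 0.14 and -0.07 on arrays 2 and 4, against 0.59 and 0.28 on arrays 1 and 3.

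The TPM1 probes formed a group of 11 brighter and a group of 10 dimmer ones, a division made after their values were seen. Brighter probes had medians of -0.46 and -1.13 on arrays 2 and 4, against -0.01 and 0.23 on arrays 1 and 3. Dimmer probes had medians of -0.22 and -0.39 on arrays 2 and 4, against 0.28 and 0.07 on arrays 1 and 3. On array 4 the ratio went down with brightness (Pearson's r = -0.88 across 20 probes of one gene on one array, which share its labelling and are not replicates), while r was -0.30 on array 2, -0.48 on array 1 and 0.42 on array 3. The part of brightness in these ratios was not tested.

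**Figure D4:**
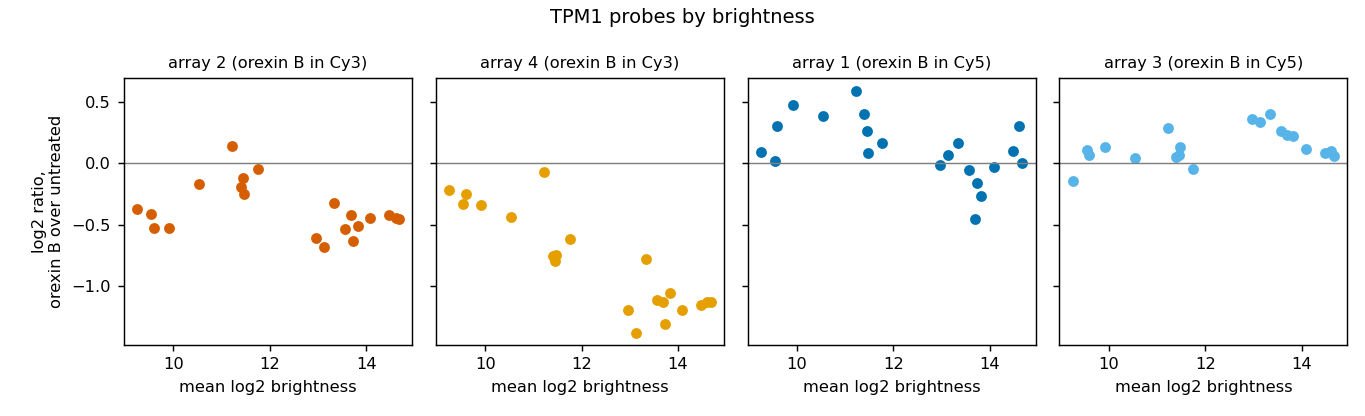
Log2 ratio of orexin B over untreated for the TPM1 probes against their mean log2 brightness, in 1 panel per array. On array 4 the brighter probes lie near -1.13 and the dimmer ones near -0.39. On array 1 the brighter probes scatter around 0 and the dimmer ones all lie above it, and on array 3 most probes lie above 0.

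CNN1 and SMTN, the thin filament regulators, had ratios of about the size seen for ACTA2 and TPM2. CNN1, calponin, which binds actin and restrains myosin's ATPase, was -1.15 and -1.07 on arrays 2 and 4, against 0.34 and 0.25 on arrays 1 and 3. That is 2.16 times lower than untreated with orexin B in Cy3, and above untreated with it in Cy5. The mean over the 4 arrays was -0.41 ± 0.81 (SD, n = 4). Its 2 probes parted on arrays 1 and 3: the brighter read -0.09 and 0.13 there, and the dimmer 0.78 and 0.36. The brighter had a mean of -0.61 ± 0.26 (SE; 95% interval -1.22 to 0.01; adjusted p = 0.644 in limma).

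SMTN, smoothelin, a protein of differentiated contractile smooth muscle, was -0.84 and -1.03 on arrays 2 and 4, against 0.11 and 0.23 on arrays 1 and 3. It averaged -0.38 ± 0.65 (SD, n = 4) and was 1.91 times lower than untreated on arrays 2 and 4. Of its 5 probes, 4 had an unadjusted p under 0.05 for the difference between orientations. The dimmest stayed near 0 everywhere, at -0.17 and -0.02 on arrays 2 and 4, against 0.08 and 0.04 on arrays 1 and 3.

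Both myosin light chains followed the same division, with no overlap of orientations. Of all tested probes, 23.6% had arrays 2 and 4 both below arrays 1 and 3. MYL9, the regulatory light chain of smooth muscle myosin and the target of the kinase, had 1 probe. It read -1.17 and -1.21 on arrays 2 and 4, against 0.25 and 0.19 on arrays 1 and 3, so arrays of one orientation lay close together. The orientations differed by -1.41 ± 0.21 (SE; unadjusted p = 0.000387, the smallest of the member probes; adjusted p = 0.235 in limma). Over the 4 arrays MYL9 averaged -0.49 ± 0.81 (SD, n = 4).

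MYL6, an essential light chain found in smooth muscle and in non-muscle cells, read -0.99 and -0.86 on arrays 2 and 4, against 0.25 and 0.12 on arrays 1 and 3. All 4 of its probes lay between -1.01 and -0.85 on average on arrays 2 and 4. The gene averaged -0.37 ± 0.65 (SD, n = 4).

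MYLK, the myosin light chain kinase that starts contraction, stood apart from the other 9 genes. Its 1 probe read -0.42 and -1.58 on arrays 2 and 4, against -0.91 and 0.31 on arrays 1 and 3. Array 1 lay between arrays 2 and 4, so the orientations overlapped, and the difference between orientations was -0.70 ± 0.51 (SE; adjusted p = 0.590 in limma). MYLK was below 0 on 3 of 4 arrays and had the lowest mean of the 10 genes, -0.65 ± 0.80 (SD, n = 4). Its 95% interval, -1.31 to 0.01, still included 0 (unadjusted p = 0.0534; adjusted p = 0.644 in limma). The gene has 12 RefSeq transcripts, and which of them the probe detects was not tested.

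DES, desmin, the intermediate filament protein of muscle cells, also varied within an orientation. It read -1.16 and -0.45 on arrays 2 and 4, against -0.23 and 0.46 on arrays 1 and 3, with a mean of -0.35 ± 0.67 (SD, n = 4), or -0.07 without array 2. Its 4 probes disagreed on array 4, where the brightest read -1.14 and the others between -0.30 and -0.17. On array 2 they ranged from -1.76 to -0.84. The probe at -1.76 had a log2 red over green of 0.34 there before any correction, against 1.71 to 2.59 for the other DES probes. The DES mean over the 4 arrays was -0.19 without background correction and -0.20 with Agilent's processed ratio. The part of background correction in the value of that spot was not tested. The orientation difference reached an unadjusted p under 0.05 for the brightest probe alone, at -1.32 ± 0.34 (SE; adjusted p = 0.262 in limma).

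MYOCD, myocardin, the coactivator that turns on smooth muscle genes, had 1 tested probe. It read -0.71 and -1.24 on arrays 2 and 4, against 0.32 and 0.64 on arrays 1 and 3, and averaged -0.25 ± 0.88 (SD, n = 4). Without array 4 its mean was 0.086, above 0. The orientations differed by -1.45 ± 0.27 (SE; unadjusted p = 0.0013; adjusted p = 0.235 in limma). Its second probe was well above background on only 2 arrays in the orexin B channel and 3 in the untreated channel and was not tested; it read -0.29 and -0.79 on arrays 2 and 4, against -0.07 and 0.19 on arrays 1 and 3.

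The 2 channels of an array can also be read separately, as log2 levels after loess and scaling of average brightness between arrays; such a level is open to dye bias, and levels of different probes are not compared here. The orexin B channel of the member probes had medians of 12.82 and 13.18 on arrays 2 and 4, against 13.95 and 13.74 on arrays 1 and 3. In the untreated channel the medians were 13.49 and 14.38 on arrays 2 and 4, against 14.10 and 13.66 on arrays 1 and 3. Orexin B levels thus separated by orientation and untreated levels did not. Probe by probe, the orexin B level was lower on both arrays 2 and 4 than on both arrays 1 and 3 for 34 of 48 probes (18.7% of all tested probes). The untreated level was higher on both arrays 2 and 4 than on both arrays 1 and 3 for 11 of 48 (17.7% of all tested probes). Between its highest and lowest array, a member probe's level differed by a median of 1.18 in the orexin B channel and 0.87 in the untreated channel (47 probes).

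MYL9 shows the pattern in 1 probe. Its orexin B level was 15.46 and 16.00 on arrays 2 and 4, against 17.31 and 16.70 on arrays 1 and 3, while its untreated level was 16.63 and 17.22 on arrays 2 and 4, against 17.07 and 16.51 on arrays 1 and 3. MYLK differed, with an orexin B level of 13.95 and 14.17 on arrays 2 and 4, against 13.98 and 14.66 on arrays 1 and 3. Its untreated level was 14.36 and 15.75 on arrays 2 and 4, against 14.89 and 14.34 on arrays 1 and 3, so the untreated channel of array 4 stood above the others.

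**Figure D5:**
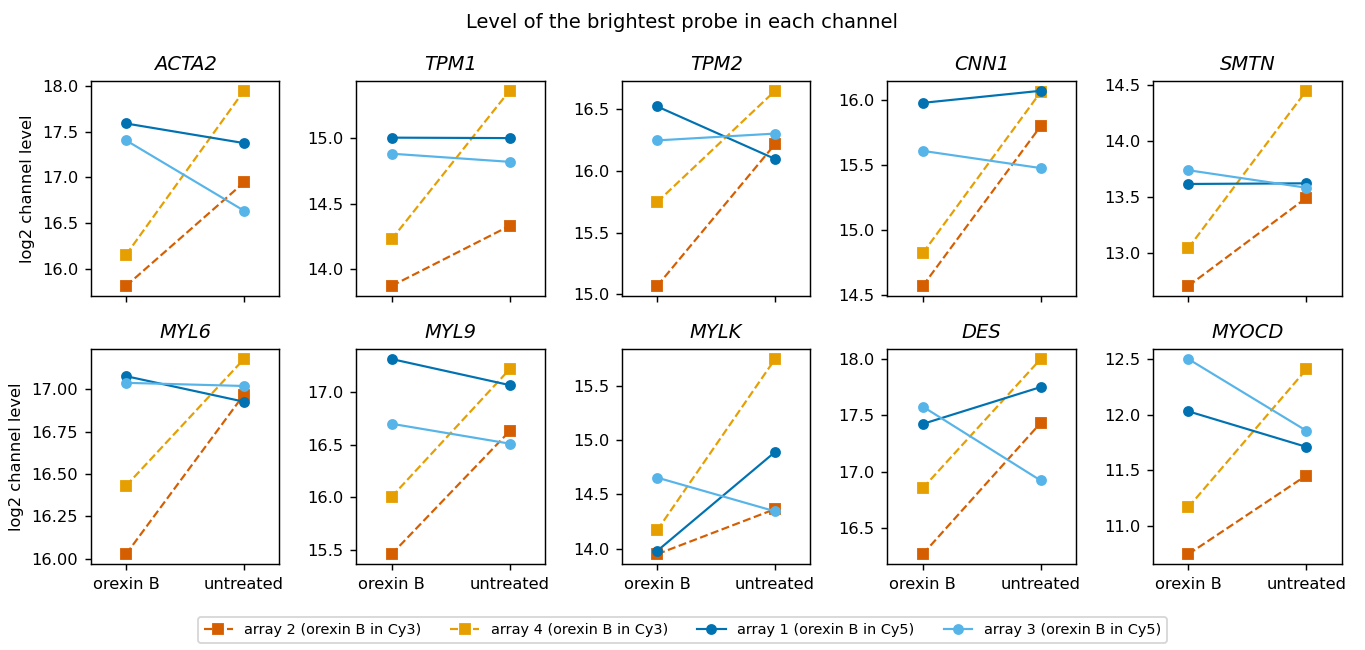
Log2 channel level of the brightest probe of each gene in the orexin B channel (left of each panel) and the untreated channel (right), with 1 line per array. Dashed lines (arrays 2 and 4, orexin B in Cy3) slope up in all 10 panels, and solid lines (arrays 1 and 3, orexin B in Cy5) are flatter or slope down in most.

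Read by dye instead of by treatment, the member probes were brighter in red on all 4 arrays. The median of red over green after loess was 0.69 and 1.05 on arrays 2 and 4, against 0.09 and 0.16 on arrays 1 and 3, while that over all tested probes lay no farther than 0.024 from 0 on any array. Before any correction the member medians were 1.51 and 1.36 on arrays 2 and 4, against 0.22 and 1.19 on arrays 1 and 3. Member probes were bright, with 27 of 48 above the 90th percentile of mean brightness among tested probes, 2 above the 99th and a median percentile of 91.2. Across 47 member probes, brightness and ratio had r = -0.59 and -0.54 on arrays 2 and 4, against r = -0.25 and 0.24 on arrays 1 and 3, as a description of probes that share arrays. The part of dye and of brightness in the members' ratios was not tested.

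Other genes listed with the contractile machinery, among them the integrin ITGB1, had smaller median ratios. Of 30 listed genes, 6 had a tested probe (TPM3, TPM4, ACTN1, VCL, DMD and ITGB1, with 22 probes), and their medians were -0.07 and 0.10 on arrays 2 and 4, against 0.19 and 0.23 on arrays 1 and 3. The means were above 0 for 4 and below 0 for VCL, a linker of actin to the cell membrane, and DMD, dystrophin. None of the 22 probes passed the adjusted threshold. An unadjusted p under 0.05 in limma for a lower ratio with orexin B in Cy3 was seen for 2, against 5.83% of all tested probes. No probe could be named for ACTG2, MYH11, TAGLN, CALD1, LMOD1, VIM or SRF, so they were not analysed here.

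Contraction signalling showed little difference. With 12 of 23 genes and 43 probes tested, its medians were -0.19 and -0.06 on arrays 2 and 4, against 0.23 and 0.08 on arrays 1 and 3. RHOA, the small GTPase that restrains myosin phosphatase, was -0.33 and 0.08 on arrays 2 and 4, against 0.43 and 0.18 on arrays 1 and 3. PPP1R12A and ROCK1 were not analysed here because no probe could be named for them. Smooth muscle transcription factors beside MYOCD (6 of 15 genes, 20 probes) had medians of -0.12 and -0.12 on arrays 2 and 4, against 0.06 and 0.08 on arrays 1 and 3. Within that list 6 of 20 probes had an unadjusted p under 0.05 for a lower ratio with orexin B in Cy3, as did 5 of 43 in the signalling list, against 5.83% of all tested probes. GATA6, a transcription factor of smooth muscle, read -1.21 and -1.24 on arrays 2 and 4, against -0.02 and 0.60 on arrays 1 and 3. KLF4, a repressor of smooth muscle genes in rodents, read -1.23 and -0.64 on arrays 2 and 4, against 0.29 and -0.22 on arrays 1 and 3. In both lists 0 probes passed the adjusted threshold.

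Markers of other cells were read beside these values. Fibroblast and stroma markers (3 of 8 genes, 13 probes) had medians of -0.64 and -0.76 on arrays 2 and 4, against -0.03 and 0.13 on arrays 1 and 3, and the log2 of their summed level spanned 15.51 to 16.28 in the orexin B channel and 16.20 to 16.28 in the untreated channel. DCN, the matrix proteoglycan decorin, was below 0 on each array, at -0.56 and -0.56 on arrays 2 and 4, against -0.54 and -0.04 on arrays 1 and 3. The log2 of the summed level of the 10 members spanned 18.40 to 19.78 in the orexin B channel and 19.30 to 20.08 in the untreated channel. Macrophage markers (8 of 10 genes) had medians above 0 on each array, at 0.08 and 0.77 on arrays 2 and 4, against 0.58 and 0.93 on arrays 1 and 3, and log2 summed levels of 12.80 to 14.06 in the orexin B channel and 12.07 to 13.31 in the untreated channel. Endothelial markers (4 of 8) had medians of 0.02 and 0.23 on arrays 2 and 4, against 0.34 and 0.22 on arrays 1 and 3.

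Striated muscle genes, including ACTA1 and ACTC1, had 6 of 24 members tested. Their medians were -0.59 and -0.29 on arrays 2 and 4, against 0.19 and 0.18 on arrays 1 and 3. Of their 31 probes, 14 were of ACTA1 and 3 of ACTC1, where signal from ACTA2 RNA cannot be told apart. The 1 tested pericyte marker, RGS5, read 1.06 and -0.78 on arrays 2 and 4, against 0.46 and 0.34 on arrays 1 and 3. Epithelial markers (2 of 8) and neutrophil markers (2 of 6) had medians with no common sign, and 0 of 6 red blood cell markers had a tested probe. At an unadjusted p under 0.05 in limma, 19 of 31 striated muscle probes were lower with orexin B in Cy3, as were 7 of 13 fibroblast and stroma probes. Among all tested probes 5.83% were. The count was 2 of 11 for macrophage probes, 0 of 7 for endothelial and 0 of 9 for epithelial probes. Of the neutrophil probes, 2 of 2 were higher with orexin B in Cy3, against 6.71% of all tested probes. In the mean over 4 arrays at that threshold, 8 of 11 macrophage probes were higher, against 4.31% of all tested probes, and 0 were lower. Of the 13 fibroblast and stroma probes 4 were lower in that mean, against 3.41% of all tested probes, and 0 were higher. None of the probes of these lists passed the adjusted threshold. The part of other cell types in the members' ratios was not tested.

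Among 1944 other named genes with a value on all 4 arrays, the 8 nearest to the members' median pattern were COL1A2, ENTPD1, HSPB1, ACTA1, FAM210B, ACSL1, MAOB and KCNG1. Nearness was the root mean square difference in log2 ratio over the 4 arrays, from 0.114 for COL1A2, a collagen chain, to 0.221 for KCNG1, a potassium channel subunit. COL1A2 read -0.86 and -1.10 on arrays 2 and 4, against 0.08 and 0.32 on arrays 1 and 3. Of the members, CNN1, SMTN, MYL9, MYL6 and TPM2 lay within 0.196 of their own median and MYLK was farthest, at 0.683.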

How the data were processed

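Myometrial RNA cultured with or without orexin B was compared on 4 Agilent pig arrays of 2 colours. Spots were quantified with Agilent Feature Extraction 10.7.3.1, and the scanner files give, as deposited, the median intensity of every spot and its local background, per the file headers. They also hold a log10 ratio of red over green from the software's processed signals, per the file headers. The deposited series table holds log2 ratios; 100% of its values matched those processed signals within 0.01, with the sign of arrays 2 and 4 turned and nothing re-centred. Its columns had medians of -0.27, -0.08, -0.20 and -0.09 for arrays 1 to 4. No genome build is named, so no coordinates are given.

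The dye fields of the labels set each ratio's direction, although the labels' protocol text gives the orientation of arrays 1 and 3 for all arrays. With limma 3.58.1 in R 4.3.3, background was corrected by normexp (offset 50) and loess was run within arrays, giving control spots weight 0. Control and outlier spots (31 to 138 per array) were left out and 0 spots were saturated. A probe was tested if well above background on all 4 arrays in either channel, with an unmarked spot on at least 3. The share of probes well above background was 48.7% to 54.3% in the orexin B channel and 37.6% to 58.2% in the untreated channel. Over all tested probes the ratios of arrays 2 and 4 had r = 0.36, those of arrays 1 and 3 r = 0.14, and pairs of opposite orientation r between -0.18 and 0.14. Models with and without dye orientation were fitted by lmFit and eBayes, and Benjamini-Hochberg adjustment of the two-sided p-values covered all 19881 probes tested.

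Unversioned RefSeq accessions were looked up in the Sscrofa11.1 gene table: 6700 probes matched, 6599 of them to a symbol, and 37004 stayed unnamed. Every member is named whatever its values. From the other lists only genes listed in the naming rule are given with values, besides the 1 tested pericyte marker and the 8 genes nearest in pattern; VCL, DMD, GATA6 and KLF4 were singled out after their values were seen, and 1 gene of the rule is not reported here. The members and lists were chosen with earlier results of these data known. The fit was tested on simulated ratios. Alternatives covered background, normalization, source, filter, slide, channel pairing, dye, direction, gene value and leaving out each array. Python 3.11.15 with matplotlib 3.10.9 drew the figures.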

Additional observations from a re-analysis of the deposited data

Results flagged for a closer look

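DCN, read as a stromal marker beside the contractile genes, had 1 array away from the others: its log2 ratio of orexin B over untreated was -0.04 on array 3, where arrays 1, 2 and 4 had -0.54, -0.56 and -0.56. The gap to the nearest array was 0.952 of the whole range. Chance gives such a gap in about 1 in 20 sets of 4 values; of 23 sets examined 1 showed it, where 1.15 would be expected.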

How the results depend on the processing

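No probe passed an adjusted p of 0.05 for orexin B over untreated under any setting run. The count of 2 member probes at an unadjusted p under 0.05 was 5 without background correction, 0 with median centring in place of loess, 1 with Agilent's processed ratio, 0 with the deposited series table, 4 with detection required in both channels, 28 with slide as a random block (within-slide correlation -0.26; 21.5% of all tested probes in either direction, against 7.72% in the fit as reported), 28 with a dye term (12% of all), 27 as Cy5 over Cy3 without turning (all above 0; 8.32% of all), and 0 to 19 with 1 array left out. Treating the channels of an array as separate samples, without the pairing as a block, gave 1 (2.48% of all tested probes). The share of all tested probes in either direction was 8.03% without background correction, 0.89% with median centring and 8.03% with Agilent's ratio. It was 7.98% with the series table and 8.24% with detection in both channels. Probes past the adjusted threshold for the orientation difference numbered 9214 with median centring and 0 to 22 with 1 array left out (22 without array 4, 1 without array 3); median centring put the median of all tested probes at -0.52 and -0.29 on arrays 2 and 4, against 0.52 and 0.34 on arrays 1 and 3. The count of 34 member probes with an unadjusted p under 0.05 for that difference stayed within 1.5 times where ratios were turned and all 4 arrays kept. The share of all tested probes moved more. With median centring 47 member probes and 55.1% of all tested probes in either direction were under 0.05. With channels as separate samples these were 23 and 4.15%. Without turning, that term measures orexin B beside a dye term instead, and its 28 member probes were all above 0. The median of the member genes over all arrays was 0.56 without turning and -0.62 to -0.20 with 1 array left out. On arrays 2 and 4 it was -1.01 without background correction, -2.14 with median centring, -1.09 with Agilent's ratio and with the series table, -1.03 with detection in both channels, -0.97 with no filter, -1.06 with the brightest probe of each gene, 0.99 without turning and -1.05 to -0.99 with 1 array left out. On arrays 1 and 3 it was 1.11 with median centring, 0.12 with the brightest probe and 0.18 to 0.24 with 1 array left out. Without turning, single genes read 0.84 for ACTA2, 0.70 for CNN1, 0.35 for MYLK, 0.56 for MYL6, 0.70 for MYL9, 0.55 for SMTN, 0.36 for TPM1, 0.56 for TPM2, 0.46 for DES and 0.73 for MYOCD; MYOCD ranged from -0.54 to 0.086 with 1 array left out, above 0 without array 4. The other 129 values of single genes kept their sign. The settings without turning differ by construction; the cause of the other shifts was not tested. Mean spot signals were not run because the files used here hold median signals, and leaving out saturated spots changed nothing because 0 were saturated. With 2 arrays per orientation, dye, gilt and treatment cannot be separated within an orientation.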
